A study of Mus musculus with 2 samples.

Results

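Dendritic cells that expressed both Fscn1, an actin-bundling protein of mature dendritic cells, and Ccr7, the chemokine receptor that guides them to lymph nodes, were compared between 2 sets of hashtagged replicates. The cells were chosen by their own counts: a barcode had to carry a single hashtag, at least 500 detected genes and at most 10% mitochondrial counts, and then at least 3 unique molecular identifiers (UMIs, each counted as 1 captured mRNA) of Fscn1, at least 3 of Ccr7 and at most 1 of Prdm16, a marker of RORgt+ antigen-presenting cells. This gate held 647 of 15480 passing cells (4.18%), 510 of them in hashtags 2, 4 and 5, the first trio, and 137 in hashtags 6, 8 and 9, the second trio. The cells were dendritic cells sorted from mesenteric lymph nodes and small intestinal lamina propria of untreated Gm38411-iCre-hCD2 mice that were 15 days old, and every group shared that genotype, age and lack of treatment. All were captured together in 1 droplet library with 1 matching hashtag library. The 6 hashtags, antibodies with a DNA barcode, mark 3 biological replicates of each tissue. The match of hashtag to tissue is not stated in the labels, and neither trio is given a tissue here. The trios were set with earlier results of these data known. The p-values below therefore describe how far the trios stood apart relative to the spread inside them, and do not test a named condition.

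Migratory dendritic cells are conventional dendritic cells that have matured in a peripheral tissue and travel through lymph to the draining node, where they meet T cells. Maturation switches on Ccr7 and Fscn1, costimulatory ligands and chemokines that draw in T cells, while capture of new antigen winds down. In the gut and its nodes these cells carry food and bacterial antigen, and some of them make retinoic acid and activate TGF-beta, both of which are known to favour regulatory T cells.

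The gate made up 8.48%, 11.2% and 10.8% of passing cells in hashtags 2, 4 and 5. It made up 1.81%, 0.550% and 1.38% in hashtags 6, 8 and 9. Every hashtag of the first trio was above every hashtag of the second, and the Wilson 95% intervals, which cover counting error only, did not meet between trios (lowest bound 7.17% in hashtag 2, highest bound 2.35% in hashtag 6). These shares follow from the rule and carry no test. The cells behind them numbered 126, 181 and 203 in the first trio against 56, 14 and 67 in the second. Hashtag 8 thus rested on 14 cells and 212371 UMIs, against 880663 to 2434870 UMIs in the others. Hashtag 8 correlated with hashtags 6 and 9 at Pearson's r of 0.843 and 0.868 across the tested genes, lower than the 0.945 between hashtags 6 and 9 and the 0.973 to 0.979 inside the first trio. Genes are not independent replicates, and these correlations describe the libraries only.

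The genes that set the gate were themselves unlike between the trios. Median Fscn1 per gate cell was 15, 16 and 15 UMIs in hashtags 2, 4 and 5 and 8, 4.5 and 7 UMIs in hashtags 6, 8 and 9. Median Ccr7 ran the other way, at 5, 5 and 6 UMIs in hashtags 2, 4 and 5 and 26, 18 and 29 UMIs in hashtags 6, 8 and 9. Gate cells of the first trio were thus high in Fscn1 and near the Ccr7 threshold, and those of the second were high in Ccr7 and nearer the Fscn1 threshold. Just inside, Ccr7 was exactly 3 UMIs in 24, 40 and 42 gate cells of hashtags 2, 4 and 5 and in 1, 1 and 3 of hashtags 6, 8 and 9. Just outside, with 2 UMIs of Ccr7 and the other conditions met, lay 48, 39 and 53 cells of hashtags 2, 4 and 5 and 2, 1 and 2 cells of hashtags 6, 8 and 9. For Fscn1 the numbers exactly at 3 UMIs were 14, 7 and 10 against 12, 5 and 18, and those just outside at 2 UMIs were 12, 9 and 25 against 35, 14 and 41. Of the cells with at least 3 Ccr7 UMIs, 73.9%, 87.5% and 72.6% also had 3 of Fscn1 in hashtags 2, 4 and 5, but 6.29%, 1.78% and 4.99% in hashtags 6, 8 and 9. In the second trio most Ccr7-positive cells therefore lay outside the gate.

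**Figure D1:**
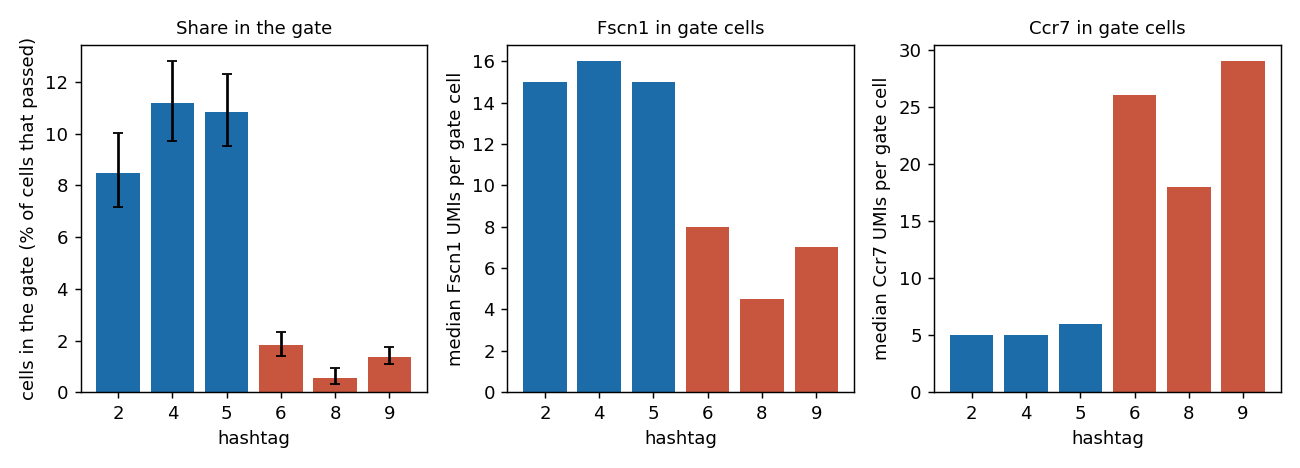
Share of passing cells in the gate (percent, bars with Wilson 95% intervals) and median UMIs of Fscn1 and of Ccr7 per gate cell, by hashtag. Hashtags 2, 4 and 5 have a gate share of 8.48% to 11.2% and high Fscn1; hashtags 6, 8 and 9 have 0.550% to 1.81% and high Ccr7.

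The label was checked against the mature dendritic cell programme. Of 26 listed genes of that programme, 25, 25 and 24 were higher in gate cells than in the other passing cells of hashtags 2, 4 and 5, and 24, 23 and 24 in hashtags 6, 8 and 9. Over all 13676 genes with at least 100 UMIs, 27.5% to 29.7% were higher in gate cells in the first trio and 46.8%, 34.6% and 51.2% in hashtags 6, 8 and 9. Markers of other cells also differed between the trios. Summed macrophage and monocyte markers came to 134, 142 and 92 CPM (counts scaled to the library total) in hashtags 2, 4 and 5 and 542, 155 and 873 CPM in hashtags 6, 8 and 9, with 104 CPM of C1qa in hashtag 9 and 2.97 to 9.42 CPM elsewhere. Summed markers of conventional type 2 dendritic cells came to 226, 201 and 249 CPM against 456, 589 and 611 CPM, and those of type 1 to 597, 576 and 529 CPM against 897, 768 and 913 CPM. T and NK cell markers summed to at most 37.8 CPM in any hashtag, and all 8 neutrophil and mast cell markers were at 0. Gate cells were also deeper in the second trio, with median counts of 13828, 14491 and 15878 UMIs against 10124, 11750 and 12151 UMIs. Their part in the results below was not tested. Values from cells of 5000 to 15000 UMIs, or without cells holding UMIs of other lineages, are given for some, not all, of the lists and genes that they change.

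Summed counts of the 6 hashtags were compared with edgeR's quasi-likelihood test, over 8243 genes without those of the gate. A call means that a gene's p, adjusted by Benjamini-Hochberg over all of them, was below 0.05. Fold changes are log2 of hashtags 6, 8 and 9 over hashtags 2, 4 and 5. The value after ± is a standard error derived from the log2 value and the F statistic of the quasi-likelihood test, with 3 hashtags a trio. CPM are relative to the total UMIs of the summed gate cells. The test called 3446 genes (41.8%), of which 1770 were higher (21.5%) and 1676 lower (20.3%) in hashtags 6, 8 and 9. Of these, 1013 were over 2-fold higher and 1044 over 2-fold lower. The trios did not overlap in CPM for 4497 genes (54.6%). With scaling by library size alone the split was 1434 higher and 2036 lower, since that scaling moved the median gene by -0.13 on the log2 scale. Restricting the gate to cells of 5000 to 15000 UMIs left 1001 higher and 981 lower of 6100 tested. Each list count below is to be read beside these shares over all genes. The share called was near 41.8% for cytokines (44.4%), survival (47.6%), cytokine receptors and SOCS (50%), retinoic acid (50%) and actin and motility (52%). Those counts do not set their lists apart. The 8243 genes are those that passed a filter on low counts, 7.91 CPM or more in at least 3 hashtags. Of them 420 passed only through hashtags 6, 8 and 9, that is, reached this level in each of those but not in each of hashtags 2, 4 and 5, and 1616 only through hashtags 2, 4 and 5. For such genes the filter itself favoured 1 direction. Among called members of the lists below they include Ctsd, Lgals9, Lrrc32, Socs3, Egr3 and Itgae on the higher side. On the lower side they include Traf2 and Bbc3. Others are named where their values or lists are given.

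RNA outside cells enters every droplet, and barcodes with at most 100 UMIs show its composition. Their CPM lay above the mean of the 2/4/5 gate cells for 1646 of the 1770 higher genes (93.0%), for 49 of the 1676 lower genes (2.92%) and for 3929 of all 8243 genes (47.7%). Against the mean of the 6/8/9 gate cells it was higher for 990 (55.9%), 1041 (62.1%) and 5026 (61.0%). The genes higher in hashtags 6, 8 and 9 were largely ones that stood at a higher level in near-empty barcodes than in the gate cells of hashtags 2, 4 and 5. Near-empty barcodes were pooled over the droplet library that all hashtags shared. Its other passing cells held 10325635, 10459883 and 12898090 UMIs in hashtags 2, 4 and 5. They held 39659754, 29832332 and 62451627 UMIs in hashtags 6, 8 and 9. The pooled profile may thus resemble the second trio, so these shares do not show where RNA in gate cells came from. The part of free RNA in the gene results was not tested, and the near-empty CPM is given for genes whose CPM are printed below and where it lay above all of hashtags 2, 4 and 5.

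**Figure D2:**
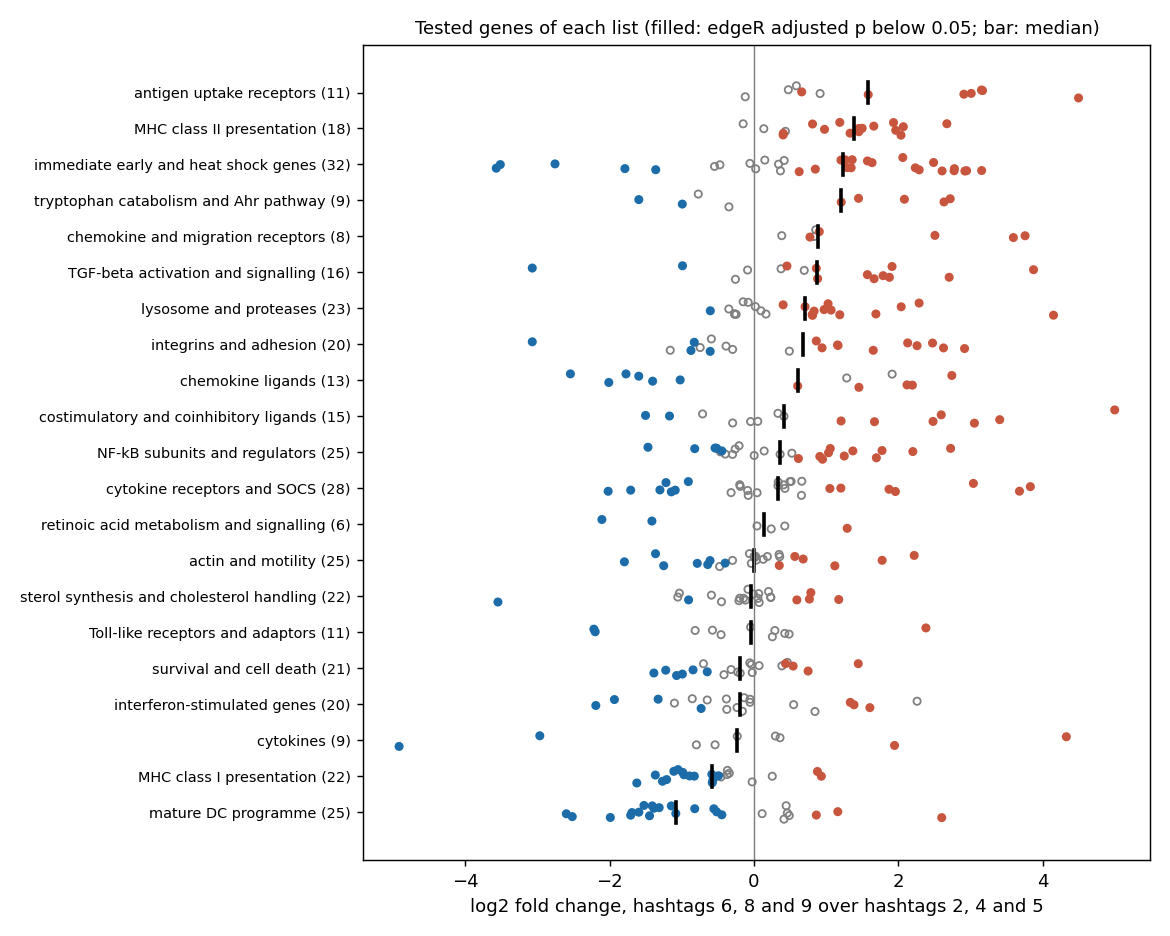
Log2 fold change of hashtags 6, 8 and 9 over 2, 4 and 5 for each tested gene of each gene list (points; filled where called) with the list median (bar). MHC class II presentation lies almost wholly above 0 (15 of 18 called higher) and the mature dendritic cell programme mostly below 0 (17 of 25 called lower).

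The clearest contrast among presentation genes was between MHC class II and MHC class I. Class II molecules show peptides from captured antigen to CD4 T cells, and class I molecules show peptides cut by the proteasome to CD8 T cells. In the class II list 15 of 18 tested genes were higher in hashtags 6, 8 and 9 and none lower (median log2 fold change 1.39, against -0.02 over all genes tested), of which H2-Ob and Ctsd passed the filter only through hashtags 6, 8 and 9. In the class I list 2 of 22 were higher and 14 lower (median -0.58). With library size alone as the scaling, the class II count was 10 of 18 and the class I count 18 lower of 22, and among cells of 5000 to 15000 UMIs they were 11 of 16 and 7 of 22. Without cells holding UMIs of other lineages they were 11 of 17 and 13 of 22.

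Both sets share a promoter element, the Y box, bound by the factor NF-Y in the enhanceosome that recruits Ciita at class II genes and Nlrc5 at class I genes. The Y box was searched as CTGATTGG or, on the other strand, CCAATCAG in the 250 bases before each RefSeq start site (GRCm38.p6). A promoter sequence was matched for 13 of the 18 tested class II genes and 19 of the 22 class I genes. The Y box was found in 4 of those 13 (30.8%), 7 of those 19 (36.8%) and 1198 of all 27025 genes with a promoter sequence (4.43%). A gene counted if any of its start sites had a match, so genes with several start sites had more chances of one. The stretches around the match are printed, with the match in capitals, for 3 class II genes that were higher and 2 class I genes that were lower. They were picked by the direction of their difference. The match reads CTGATTGG in the class II stretches and CCAATCAG, its form on the other strand, in the class I stretches. H2-Aa lies at chr17:34287827-34287914 on the minus strand, and the others on the plus strand at chr17:34305765-34305852 (H2-Eb1), chr17:34092293-34092378 (H2-Oa), chr17:35424755-35424842 (H2-Q6) and chr17:34187306-34187381 (Tap1, a stretch that Psmb9 shares from the opposite strand).
H2-Aa: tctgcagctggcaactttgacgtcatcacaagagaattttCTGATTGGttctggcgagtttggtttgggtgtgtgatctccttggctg
H2-Eb1: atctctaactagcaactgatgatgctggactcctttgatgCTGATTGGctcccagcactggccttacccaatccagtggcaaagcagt
H2-Oa: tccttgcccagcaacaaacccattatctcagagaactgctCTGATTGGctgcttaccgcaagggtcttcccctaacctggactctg
H2-Q6: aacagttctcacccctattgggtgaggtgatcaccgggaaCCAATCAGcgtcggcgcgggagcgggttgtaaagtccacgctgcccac
Tap1: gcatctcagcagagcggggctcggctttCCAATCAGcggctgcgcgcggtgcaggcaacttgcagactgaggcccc
The other class II gene with a match, H2-Eb2, was not called, nor were Canx, H2-D1, H2-T23 and Psmb9 of the 7 class I genes. A match describes the letters only and is not evidence of binding.

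Among the class II chains, H2-Ab1 stood at 946, 1053 and 1216 CPM in hashtags 2, 4 and 5 and 3173, 4403 and 3468 CPM in hashtags 6, 8 and 9. For H2-Ab1 the log2 fold change was 1.93 ± 0.18 (adjusted p = 9.41e-06). H2-Aa stood at 2185, 2353 and 2744 CPM in hashtags 2, 4 and 5 and 5516, 6507 and 5897 CPM in hashtags 6, 8 and 9. This gave H2-Aa a log2 fold change of 1.45 ± 0.15 (adjusted p = 2.05e-05). Each hashtag of the second trio was above each of the first for both genes. Near-empty barcodes held 4374 CPM of H2-Ab1, 5568 CPM of H2-Aa and 8948 CPM of Cd74, the invariant chain that escorts class II molecules, whose log2 fold change was 1.33 ± 0.17. The peptide-loading factors H2-DMa and H2-DMb1 and their inhibitors H2-Oa and H2-Ob were higher too, at log2 fold changes of 1.96, 2.07, 2.04 and 2.67. H2-Ob, at chr17 34238903 to 34254414, stood at 6.68, 9.40 and 13.1 CPM in hashtags 2, 4 and 5 and 56.8, 51.8 and 65.1 CPM in hashtags 6, 8 and 9, beside 109 CPM in near-empty barcodes. Ciita, the activator of class II transcription, showed no detectable difference, at 148, 120.3 and 129 CPM in hashtags 2, 4 and 5 and 119, 146 and 137 CPM in hashtags 6, 8 and 9 (log2 fold change 0.14 ± 0.16, adjusted p = 0.522), beside 244 CPM in near-empty barcodes.

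In the class I list, Nlrc5, the activator of class I transcription, stood at 312, 324 and 349.9 CPM in hashtags 2, 4 and 5 and 139.7, 146 and 81.2 CPM in hashtags 6, 8 and 9 (log2 fold change -1.37 ± 0.21, adjusted p = 3.60e-04). No overlap between trios was a condition of its being named. With the gate at 5 UMIs the adjusted p of Nlrc5 was 0.0715. Tapbpl, a peptide editor, stood at 83.8, 81.8 and 83.4 CPM in hashtags 2, 4 and 5 and 38.6, 23.5 and 13.5 CPM in hashtags 6, 8 and 9 (log2 fold change -1.62 ± 0.29, adjusted p = 8.51e-04). The peptide transporters Tap1 and Tap2 were lower at -0.99 and -0.97, the immunoproteasome subunit Psmb8 at -0.89 and the proteasome activator Psme2 at -1.11. H2-K1 was lower at -0.49. H2-D1 and B2m, the shared light chain, fell short of the threshold at -0.34 (adjusted p = 0.0719) and -0.37 (adjusted p = 0.0503). H2-Q4, H2-Q6 and H2-Q7 were lower at -1.21, -1.27 and -1.05, but these are near-identical copies between which reads can be split, so single values are uncertain. The 2 higher members were the chaperones Calr (0.88) and Pdia3 (0.93).

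Of 25 receptors for antigen uptake, 11 passed the filter on low counts, 7 of which were called higher in hashtags 6, 8 and 9. Of these 7, 5 (Cd209a, Cd209b, Clec12a, Clec4a2 and Clec4n) passed only through that trio, so the count was partly set by the filter and supports nothing about the list. The others were Ly75 and Timd4, the latter just above the filter in the first trio. Timd4, a receptor for phosphatidylserine on dying cells, stood at 8.90, 7.99 and 8.62 CPM in hashtags 2, 4 and 5 and 128, 212 and 201 CPM in hashtags 6, 8 and 9. For Timd4 the log2 fold change was 4.50 ± 0.26 (adjusted p = 8.71e-07). The C-type lectins Clec4n, Cd209a and Clec4a2 stood at 3.15, 3.01 and 2.91, with means of at most 57.7 CPM in either trio. Near-empty barcodes held 136 CPM of Timd4. Only 5 uptake receptors could be tested among cells of 5000 to 15000 UMIs, of which 2 were higher. Among lysosomal genes, 13 of 23 were higher and 1 lower (median 0.71), a count that dropped to 5 of 20 in that range of UMIs and to 6 of 22 without cells holding UMIs of other lineages. Over all genes tested 1770 of 8243 were higher, 1001 of 6100 in that range and 1435 of 7408 without those cells. Lyz2, lysozyme of myeloid cells, stood at 17.1, 17.9 and 11.5 CPM in hashtags 2, 4 and 5 and 471, 51.8 and 153 CPM in hashtags 6, 8 and 9 (log2 fold change 4.15 ± 0.53, adjusted p = 9.09e-05), and Cd68, a lysosomal membrane protein, was higher at 2.29. Near-empty barcodes held 172 CPM of Lyz2. Without hashtag 6 its log2 fold change was 3.14. Among cells of 5000 to 15000 UMIs Lyz2 was too low to test, at 23.8, 9.95 and 12.6 CPM in hashtags 2, 4 and 5 and 14.5, 0 and 109 CPM in hashtags 6, 8 and 9, where hashtags 6 and 8 did not exceed the first trio. Lyz2 is itself among the summed macrophage markers given above, whose part in these counts was not tested.

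Costimulatory and coinhibitory molecules, here ligands together with the receptors Cd40 and Havcr2, were unevenly distributed. Of 15 tested, 7 were higher in hashtags 6, 8 and 9 and 2 lower (median 0.42). Cd86, a ligand of CD28 and CTLA-4 (chr16 36603869 to 36666081, minus strand), stood at 274, 324 and 313 CPM in hashtags 2, 4 and 5 and 1792, 2924 and 2100.2 CPM in hashtags 6, 8 and 9. This gave Cd86 a log2 fold change of 3.05 ± 0.21 (adjusted p = 1.81e-06). Cd80, the other ligand of the pair, stood at 109, 102 and 76.8 CPM in hashtags 2, 4 and 5 and 541, 612 and 426 CPM in hashtags 6, 8 and 9 (log2 fold change 2.60 ± 0.19, adjusted p = 2.46e-06). For both genes every hashtag of the second trio was above every hashtag of the first. Near-empty barcodes held 1796 CPM of Cd86 and 319 CPM of Cd80. After thinning each cell to 3000 UMIs, which left out 6 of the 647 gate cells, Cd86 was seen in 48.4%, 47.2% and 55.9% of gate cells of hashtags 2, 4 and 5 and in 96.4%, 100% and 92.5% of those of hashtags 6, 8 and 9 (73.0%, 80.7% and 86.2% against 98.2%, 100% and 98.5% before thinning). The other passing cells gave thinned shares of 60.4%, 52.0% and 56.7% against 93.9%, 96.3% and 95.9%.

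Cd274, which encodes the inhibitory ligand PD-L1, stood at 434, 419.8 and 439 CPM in hashtags 2, 4 and 5 and 719, 1074 and 914 CPM in hashtags 6, 8 and 9. For Cd274 the log2 fold change was 1.21 ± 0.17 (adjusted p = 2.05e-04), and near-empty barcodes held 457 CPM. Havcr2, which encodes TIM-3, stood at 46.7, 46.1 and 46.0 CPM in hashtags 2, 4 and 5 and 395, 551 and 410.2 CPM in hashtags 6, 8 and 9 (log2 fold change 3.40 ± 0.19, adjusted p = 8.71e-07), beside 691 CPM in near-empty barcodes. Tnfsf4, the OX40 ligand, was close to undetected in the first trio at 0, 2.82 and 2.87 CPM and reached 92.0, 51.8 and 49.1 CPM in the second (log2 fold change 5.00 ± 0.45, adjusted p = 7.80e-06), through which alone it passed the filter. Near-empty barcodes held 2.43 CPM of Tnfsf4, and the other passing cells of the second trio only 3.05, 3.89 and 3.59 CPM. It was seen in 21.4%, 28.6% and 13.4% of gate cells of hashtags 6, 8 and 9 (10.7%, 21.4% and 5.97% after thinning) and in 0.930%, 0.702% and 1.10% of their other cells after thinning. The lower members were Icosl, ligand of ICOS (log2 fold change -1.50 ± 0.18, adjusted p = 4.92e-05), and Cd40, which receives the helper signal from T cells. Cd40 stood at 337, 436 and 329 CPM in hashtags 2, 4 and 5 and 139.7, 193 and 134 CPM in hashtags 6, 8 and 9 (log2 fold change -1.17 ± 0.19, adjusted p = 5.55e-04), but among cells of 5000 to 15000 UMIs its log2 fold change was -0.54 with an adjusted p of 0.0832.

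**Figure D3:**
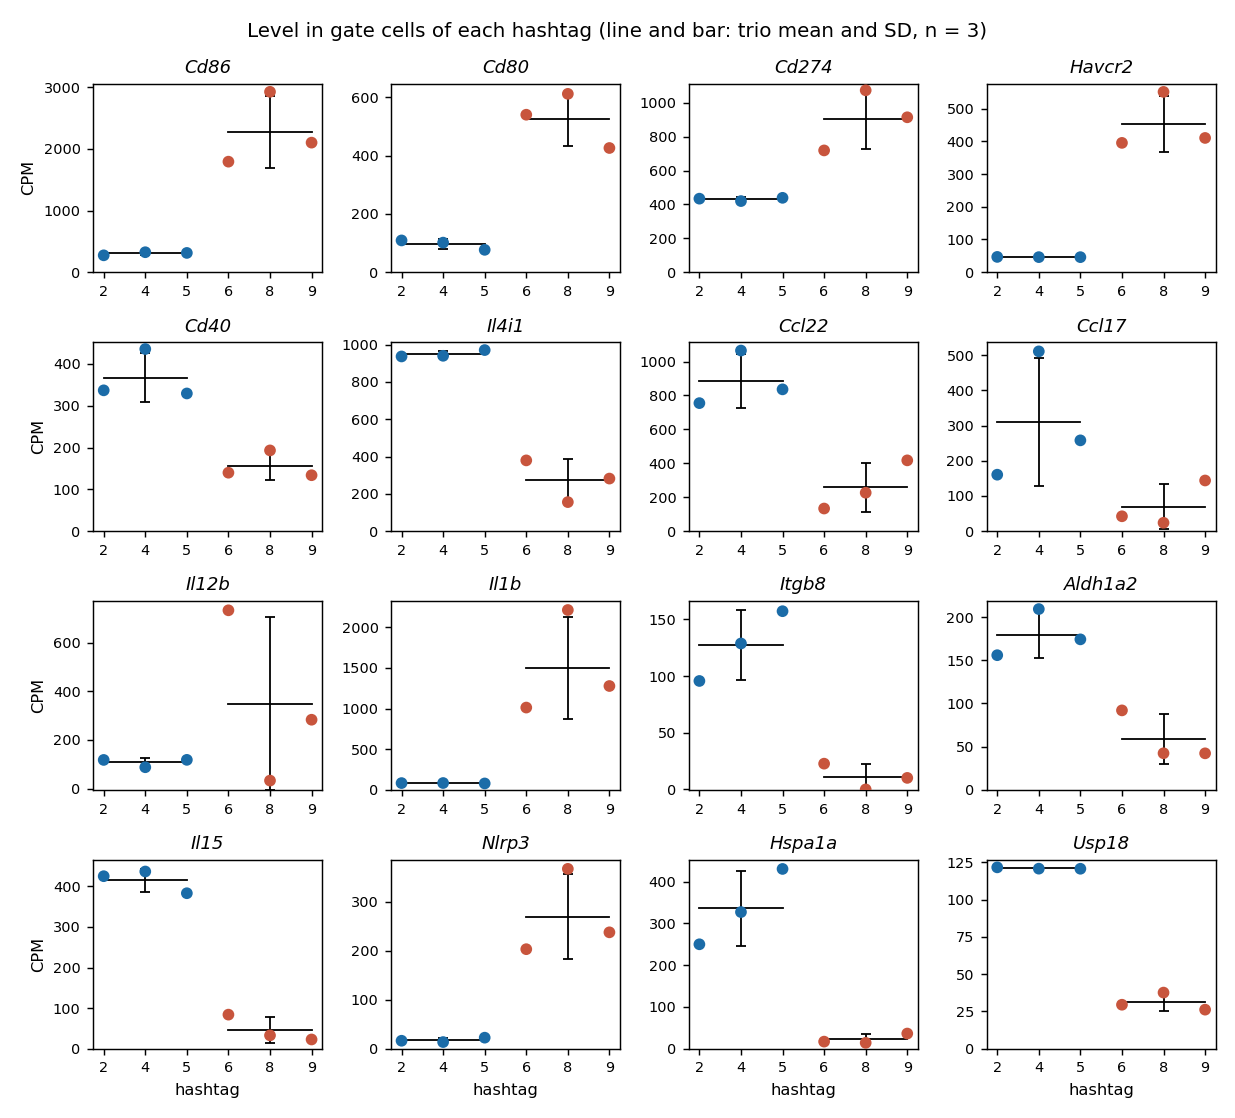
CPM of 16 genes in gate cells of each hashtag (points), with the mean and SD of each trio (n = 3 hashtags). Cd86, Cd80, Cd274, Havcr2, Il1b and Nlrp3 are higher in hashtags 6, 8 and 9, and Cd40, Il4i1, Ccl22, Ccl17, Itgb8, Aldh1a2, Il15, Hspa1a and Usp18 are lower; Il12b overlaps between the trios.

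Secreted cytokines included some of the largest differences. Il1b, the inflammasome-processed cytokine, stood at 83.8, 84.6 and 79.3 CPM in hashtags 2, 4 and 5 and 1013, 2213 and 1278 CPM in hashtags 6, 8 and 9 (log2 fold change 4.33 ± 0.29, adjusted p = 1.81e-06), and Nlrp3, an inflammasome sensor, at 16.3, 13.6 and 22.6 CPM in hashtags 2, 4 and 5 and 203, 367 and 238 CPM in hashtags 6, 8 and 9. This gave Nlrp3 a log2 fold change of 3.98 ± 0.28 (adjusted p = 1.81e-06). Near-empty barcodes held 1348 and 395 CPM of them, within the range of the second trio for Il1b and above it for Nlrp3. Il15, which sustains NK cells and memory CD8 T cells, was lower at 425, 437 and 383 CPM in hashtags 2, 4 and 5 and 84.0, 33.0 and 22.8 CPM in hashtags 6, 8 and 9 (log2 fold change -2.97 ± 0.33, adjusted p = 3.65e-05). Its presenting receptor Il15ra was also lower, at 271, 220.0 and 202 CPM in hashtags 2, 4 and 5 and 114, 23.5 and 35.5 CPM in hashtags 6, 8 and 9. For Il15ra the log2 fold change was -1.71 ± 0.35 (adjusted p = 0.00208). Il12b, the p40 subunit of IL-12 and IL-23, stood at 118, 87.9 and 118 CPM in hashtags 2, 4 and 5 and 734, 33.0 and 283 CPM in hashtags 6, 8 and 9. This gave Il12b a log2 fold change of 1.95 ± 0.52 (adjusted p = 0.0106). Hashtag 8 lay below the whole first trio, so the trios overlapped for Il12b, and DESeq2 gave an adjusted p of 0.218. Its adjusted p was also above the threshold without hashtag 2 (0.0567), without hashtag 4 (0.0724) and without cells holding UMIs of other lineages (0.0916). Without hashtag 6 the log2 fold change was 1.04. Il12b was seen in 11.1%, 12.7% and 18.7% of gate cells of hashtags 2, 4 and 5 and in 48.2%, 7.14% and 29.9% of those of hashtags 6, 8 and 9, where hashtag 8 contributed 1 cell of 14. After thinning these shares were 5.65%, 6.74% and 9.90% against 37.5%, 7.14% and 25.4%, and those of the other cells were at most 1.56%. Of all 9 cytokines tested, 2 were higher and 2 lower (4 and 2 of 11 without hashtag 8), and Tnf, Ltb, Ebi3, Il18 and Lta were not called. Csf1, lower beside Il15, passed the filter only through hashtags 2, 4 and 5.

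Of 13 chemokine ligands tested, 5 were higher in hashtags 6, 8 and 9 and 6 lower (5 and 2 of 11 among cells of 5000 to 15000 UMIs). Of the lower ones, Ccl6, Ccl9 and Cx3cl1 passed the filter only through hashtags 2, 4 and 5, so the lower count was partly set by the filter. The other lower ones were Ccl22 and Ccl17, the ligands of CCR4, and Ccl5, a chemoattractant of T cells. Ccl22 stood at 755, 1065 and 836 CPM in hashtags 2, 4 and 5 and 133, 226 and 417 CPM in hashtags 6, 8 and 9 (log2 fold change -1.60 ± 0.32, adjusted p = 0.00199). Ccl17 stood at 160.3, 511 and 258 CPM in hashtags 2, 4 and 5 and 42.0, 23.5 and 144 CPM in hashtags 6, 8 and 9. For Ccl17 the log2 fold change was -1.77 ± 0.49 (adjusted p = 0.0132). Ccl5 stood at 3740.3, 2632 and 3368 CPM in hashtags 2, 4 and 5 and 2289, 1285 and 753 CPM in hashtags 6, 8 and 9. This gave Ccl5 a log2 fold change of -1.02 ± 0.30 (adjusted p = 0.0179). The trios did not overlap for any of these, but the calls were not stable: among cells of 5000 to 15000 UMIs the log2 fold changes were -0.46 for Ccl22 (adjusted p = 0.380), 0.02 for Ccl17 (0.983) and -0.59 for Ccl5 (0.128). DESeq2 gave an adjusted p of 0.0590 for Ccl17, and without hashtag 4 it was 0.0730; without hashtag 2 that of Ccl5 was 0.0721. With the gate at 5 UMIs the adjusted p was 0.0674 for Ccl17 and 0.355 for Ccl5. Cxcl2, which draws in neutrophils, was higher and stood at 46.0, 40.9 and 40.7 CPM in hashtags 2, 4 and 5 and 117, 268 and 381 CPM in hashtags 6, 8 and 9 (log2 fold change 2.74 ± 0.35, adjusted p = 8.90e-05), beside 427 CPM in near-empty barcodes. Ccl3 and Ccl4 were higher at 2.20 and 2.12.

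Receptors for migration other than Ccr7 were higher where called, 5 of 8 tested (median 0.88). Ccrl2, a chemerin-binding receptor, stood at 22.3, 28.2 and 34.9 CPM in hashtags 2, 4 and 5 and 382, 259 and 301 CPM in hashtags 6, 8 and 9 (log2 fold change 3.59 ± 0.20, adjusted p = 8.71e-07), and Ccr1, a receptor for inflammatory chemokines, at 13.4, 8.93 and 5.34 CPM in hashtags 2, 4 and 5 and 40.9, 184 and 134 CPM in hashtags 6, 8 and 9 (log2 fold change 3.76 ± 0.50, adjusted p = 1.18e-04). Near-empty barcodes held 258 CPM of Ccrl2 and 145 CPM of Ccr1. Ccr1 passed the filter only through the second trio and was too low to test among cells of 5000 to 15000 UMIs, at 15.5, 8.42 and 5.05 CPM against 14.5, 185 and 64.4 CPM. Cxcr4, Ptger4 and Gpr183 were higher at 2.51, 0.91 and 0.78. Ccr9, the gut-homing receptor, was scarce at 12.6, 5.17 and 16.4 CPM in hashtags 2, 4 and 5 and 25.0, 0 and 18.6 CPM in hashtags 6, 8 and 9 and was not called (log2 fold change 0.83 ± 0.50, adjusted p = 0.208), beside 29.7 CPM in near-empty barcodes. Among 25 actin and motility genes 6 were higher and 7 lower (median 0.01). Dock8, an exchange factor needed for dendritic cell migration through tissue, stood at 916, 1006 and 969 CPM in hashtags 2, 4 and 5 and 319, 184 and 232 CPM in hashtags 6, 8 and 9. For Dock8 the log2 fold change was -1.79 ± 0.17 (adjusted p = 1.15e-05). Ccdc88a and Vim were lower with it at -1.36 and -1.25, while Eps8, an actin-capping protein, stood at 64.6, 73.3 and 67.4 CPM in hashtags 2, 4 and 5 and 203, 527 and 218 CPM in hashtags 6, 8 and 9. This gave Eps8 a log2 fold change of 2.22 ± 0.33 (adjusted p = 2.39e-04). Near-empty barcodes held 504 CPM of Eps8, above hashtags 6 and 9.

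Itgb8 and Aldh1a2, genes by which dendritic cells are known to favour regulatory T cells, were lower in hashtags 6, 8 and 9. Itgb8, the integrin subunit that releases active TGF-beta from its latent complex (chr12 119158022 to 119238802, minus strand), stood at 95.7, 129 and 157 CPM in hashtags 2, 4 and 5 and 22.7, 0 and 10.2 CPM in hashtags 6, 8 and 9 (log2 fold change -3.07 ± 0.37, adjusted p = 5.97e-05). It was seen in 20.6%, 22.7% and 29.6% of gate cells of hashtags 2, 4 and 5, in 10.7% and 4.48% of those of hashtags 6 and 9, and in 0 of 14 cells of hashtag 8, which allows a share of up to 21.4% of cells with a UMI and does not limit how many cells express it. After thinning the shares were 16.1%, 16.9% and 20.3% against 5.36%, 0% and 2.99%, and those of the other cells were at most 2.89%. Aldh1a2, the enzyme that makes retinoic acid, stood at 156, 209 and 174 CPM in hashtags 2, 4 and 5 and 92.0, 42.4 and 42.3 CPM in hashtags 6, 8 and 9. For Aldh1a2 the log2 fold change was -1.41 ± 0.26 (adjusted p = 0.00107). Il4i1, a secreted amino acid oxidase, stood at 937, 941 and 971 CPM in hashtags 2, 4 and 5 and 379, 155 and 282 CPM in hashtags 6, 8 and 9. This gave Il4i1 a log2 fold change of -1.59 ± 0.21 (adjusted p = 1.07e-04). None of these 3 overlapped between trios. Ido1 was at most 5.92 CPM in any hashtag and was not tested. In the TGF-beta list, which holds Itgb8, 16 of 22 genes could be tested, of which 10 were higher, 2 lower and 4 not called (median 0.87). Among cells of 5000 to 15000 UMIs 6 of 13 were higher and 2 lower. Itgb8 passed the filter only through hashtags 2, 4 and 5. The higher members included Tgif1 (2.70), Tgfb1 (1.91), Skil (1.66) and Smad7 (1.57), whereas Smad2 was the other lower member (-0.99). Of 6 tested retinoic acid genes, 1 was higher and 2 lower (0 and 2 of 8 without hashtag 8). In the tryptophan and Ahr list 5 of 9 were higher and 2 lower. Rarg of the retinoic acid list and Haao of the tryptophan list, both among the lower genes, passed the filter only through hashtags 2, 4 and 5. Ahr, the aryl hydrocarbon receptor, stood at 65.3, 57.4 and 65.3 CPM in hashtags 2, 4 and 5 and 259, 405 and 403 CPM in hashtags 6, 8 and 9 (log2 fold change 2.63 ± 0.21, adjusted p = 2.95e-06), beside 574 CPM in near-empty barcodes.

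Most genes of the mature dendritic cell programme were lower in gate cells of hashtags 6, 8 and 9 than in those of hashtags 2, 4 and 5. Of 25 tested, 3 were higher and 17 lower (median -1.08), and 7 were higher and 11 lower among cells of 5000 to 15000 UMIs. Slco5a1, a transporter-like gene of mature dendritic cells, stood at 835, 786 and 769 CPM in hashtags 2, 4 and 5 and 179, 28.3 and 108 CPM in hashtags 6, 8 and 9 (log2 fold change -2.60 ± 0.30, adjusted p = 4.57e-05). Socs2, a suppressor of cytokine signalling, stood at 657, 691 and 592 CPM in hashtags 2, 4 and 5 and 425, 75.3 and 237 CPM in hashtags 6, 8 and 9 (log2 fold change -1.14 ± 0.32, adjusted p = 0.0145), and its call was lost without hashtag 2, 4 or 9, with the gate at 5 UMIs and among cells of 5000 to 15000 UMIs. Apol7c, Fabp5, Cacnb3 and Tmem150c were lower at -1.69, -1.52, -1.99 and -2.52. The 3 higher members were Cd83 (1.16), Tbc1d4 (0.86) and Stat4, the transducer of IL-12 signals, which stood at 135, 194 and 132 CPM in hashtags 2, 4 and 5 and 900.5, 645 and 966 CPM in hashtags 6, 8 and 9. For Stat4 the log2 fold change was 2.60 ± 0.19 (adjusted p = 2.39e-06), beside 257 CPM in near-empty barcodes.

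Among subunits and regulators of NF-kB, which turns on many maturation genes, 11 of 25 were higher and 5 lower (median 0.36). The subunits Rel and Nfkb1 were higher at 1.77 and 1.37. Members of the alternative pathway went both ways, with the kinase Map3k14 higher at 1.25 and the subunits Relb and Nfkb2 lower at -0.82 and -0.54. Tnip3, an inhibitor of NF-kB signalling, stood at 80.1, 109 and 96.1 CPM in hashtags 2, 4 and 5 and 412, 866 and 488 CPM in hashtags 6, 8 and 9 (log2 fold change 2.72 ± 0.28, adjusted p = 1.73e-05), and Irak2, a kinase downstream of Toll-like receptors, at 82.4, 104 and 73.5 CPM in hashtags 2, 4 and 5 and 352, 537 and 371 CPM in hashtags 6, 8 and 9. This gave Irak2 a log2 fold change of 2.38 ± 0.21 (adjusted p = 7.62e-06). Near-empty barcodes held 643 CPM of Tnip3 and 463 CPM of Irak2, within the range of the second trio. Among immediate early and heat shock genes 19 of 32 were higher and 5 lower (median 1.24). The higher ones were led by the nuclear receptors Nr4a3, Nr4a2 and Nr4a1 at 3.15, 2.95 and 2.92, with Fos at 2.77 and Junb at 2.06. The lower ones were Jun (-1.36) and 4 chaperones. Of these, Hspa1a stood at 250.04, 327 and 430.4 CPM in hashtags 2, 4 and 5 and 17.0, 14.1 and 36.4 CPM in hashtags 6, 8 and 9 (log2 fold change -3.57 ± 0.31, adjusted p = 6.47e-06), and Hspa1b, a near-identical copy whose reads may be split with it, was lower at -3.51.

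Of 20 tested interferon-stimulated genes 3 were higher and 4 lower (35% called, against 41.8% of all genes tested), so the count sets the list apart in neither direction. Usp18, which removes the ubiquitin-like protein ISG15, stood at 122, 121 and 121 CPM in hashtags 2, 4 and 5 and 29.5, 37.7 and 26.2 CPM in hashtags 6, 8 and 9 (log2 fold change -1.93 ± 0.19, adjusted p = 1.22e-05), and Gbp5, a guanylate-binding protein, at 157, 125 and 131 CPM in hashtags 2, 4 and 5 and 35.2, 23.5 and 21.99 CPM in hashtags 6, 8 and 9 (log2 fold change -2.19 ± 0.21, adjusted p = 1.23e-05). Stat2 and Bst2 were higher at 1.61 and 1.34. Without hashtag 8 the lower count was 10 of 20 and the higher count 3. Of 28 cytokine receptors and SOCS genes, 7 were higher and 7 lower: Il1r2, the decoy receptor for IL-1, stood at 56.4, 59.7 and 62.8 CPM in hashtags 2, 4 and 5 and 551, 777 and 760.4 CPM in hashtags 6, 8 and 9 (log2 fold change 3.68 ± 0.19, adjusted p = 8.71e-07) with 1116 CPM in near-empty barcodes, above the whole second trio, and Tnfrsf11a, the receptor RANK, was lower at -2.02. Csf1r, the receptor of macrophage growth factor and itself a macrophage marker, stood at 2.97, 4.70 and 2.46 CPM in hashtags 2, 4 and 5 and 19.3, 9.42 and 80.4 CPM in hashtags 6, 8 and 9 (log2 fold change 3.83 ± 0.61, adjusted p = 4.13e-04), and at 2.42 on the log2 scale without hashtag 9. Near-empty barcodes held 37.7 CPM of Csf1r. It passed the filter only through the second trio and was too low to test among cells of 5000 to 15000 UMIs, at 3.57, 4.59 and 1.89 CPM against 14.5, 0 and 0 CPM. In the cholesterol list 4 of 22 were higher and 2 lower. Abcg1, a cholesterol exporter, stood at 228, 232 and 175 CPM in hashtags 2, 4 and 5 and 23.8, 0 and 14.4 CPM in hashtags 6, 8 and 9 (log2 fold change -3.55 ± 0.31, adjusted p = 6.13e-06). It passed the filter only through hashtags 2, 4 and 5. In the survival list 4 of 21 were higher and 6 lower, with the death receptor Fas at -1.39 (adjusted p = 0.0632 among cells of 5000 to 15000 UMIs) and the pro-apoptotic Bcl2l11 at 1.45. Integrins and adhesion genes counted 10 of 20 higher and 4 lower, and Toll-like receptors and adaptors 1 of 11 higher and 2 lower. The 2 lower receptor and adaptor genes, Tlr11 and Ly96, passed the filter only through hashtags 2, 4 and 5, so that lower count was set by the filter. Among cells of 5000 to 15000 UMIs the integrin and adhesion list had 4 of 15 higher and 4 lower, with a median of -0.03 in place of 0.68. In the same range the cholesterol list had 1 of 18 higher and 2 lower, and the survival list 4 of 18 higher and 2 lower.

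Outside the lists, the genes with the highest fold changes among those of at least 50 CPM included Zfp667, a zinc finger protein, at 5.19, 2.35 and 4.11 CPM in hashtags 2, 4 and 5 and 59.0, 118 and 63.4 CPM in hashtags 6, 8 and 9. For Zfp667 the log2 fold change was 4.35 ± 0.37 (adjusted p = 5.29e-06). Mpp7, a scaffold of cell polarity, stood at 87.6, 87.9 and 117 CPM in hashtags 2, 4 and 5 and 1054, 1813 and 1351 CPM in hashtags 6, 8 and 9. This gave Mpp7 a log2 fold change of 3.99 ± 0.24 (adjusted p = 1.33e-06). Pik3ap1, an adaptor that links receptors to PI3 kinase, stood at 40.8, 37.6 and 39.0 CPM in hashtags 2, 4 and 5 and 310.0, 805 and 486 CPM in hashtags 6, 8 and 9 (log2 fold change 3.87 ± 0.32, adjusted p = 4.53e-06). Near-empty barcodes held 82.8 CPM of Zfp667, 805 CPM of Mpp7 and 776 CPM of Pik3ap1, within the range of the second trio for Zfp667 and Pik3ap1 and below it for Mpp7. Lower in hashtags 6, 8 and 9 were Cdh2, which encodes N-cadherin, at 191, 167 and 265 CPM in hashtags 2, 4 and 5 and 27.3, 4.71 and 5.92 CPM in hashtags 6, 8 and 9 (log2 fold change -3.75 ± 0.40, adjusted p = 2.35e-05), and Dkk2, a secreted Wnt modulator, at 334, 278 and 398 CPM in hashtags 2, 4 and 5 and 52.2, 4.71 and 27.9 CPM in hashtags 6, 8 and 9. For Dkk2 the log2 fold change was -3.16 ± 0.31 (adjusted p = 1.36e-05). Stxbp6 and Bag3 were lower at -4.07 and -3.18, Bag3 being a partner of heat shock proteins. These 7 genes were taken from called genes whose trios do not overlap, so their lack of overlap follows from the choice. Zfp667 passed the filter on low counts only through hashtags 6, 8 and 9, and Cdh2 and Dkk2 only through hashtags 2, 4 and 5. For such genes the filter itself favoured 1 direction. Over all 8243 genes tested the trios did not overlap for 4497 (54.6%). The gene Gm38411, which names the mouse line, had 1 UMI in all gate cells, and tdTomato, a fluorescent reporter, stood at 18.5, 37.6 and 49.3 CPM in hashtags 2, 4 and 5 and 51.1, 212 and 66.8 CPM in hashtags 6, 8 and 9 (log2 fold change 1.35 ± 0.47, adjusted p = 0.0357), beside 129 CPM in near-empty barcodes. The tdTomato call was lost without hashtag 2, 4 or 8 and with the gate at 5 UMIs.

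The trio difference in gate cells was tested against that in the 14833 other passing cells of the same hashtags, with the hashtag as a block. This difference of differences was called for 2402 of 13167 genes (18.2%). Its direction depended on the scaling over genes as a whole: 841 were higher and 1561 lower with TMM, 1011 and 1120 with relative log expression factors, and 2617 and 401 with library size alone. Direction is therefore given only for genes called with the same sign under all 3 scalings. The log2 difference of differences was 2.96 ± 0.71 for Tnfsf4, 1.88 ± 0.31 for Socs2, 1.47 ± 0.30 for Slco5a1, 1.45 ± 0.20 for Il4i1 and 1.04 ± 0.27 for Ccl5. Il4i1, for example, was lower in hashtags 6, 8 and 9 in both classes, but stood at 181, 174 and 178 CPM against 14.3, 11.6 and 11.2 CPM in the other cells, a wider gap than in the gate. Below 0 lay Hspa1a at -2.92 ± 0.22, Ccl3 at -1.97 ± 0.30, Cxcl2 at -1.82 ± 0.27, Cd274 at -1.31 ± 0.14 and Cd40 at -1.16 ± 0.18. Cd274 was higher in hashtags 6, 8 and 9 in both classes, with 209, 185 and 179 CPM against 591, 689 and 603 CPM in the other cells. With library size alone these 5 lay at -2.30, -1.34, -1.18, -0.67 and -0.53, and the 5 genes above 0 at 3.58, 2.51, 2.10, 2.08 and 1.68. None of the 10 lost its call when a hashtag was left out. Differences for Cd80 (0.03 ± 0.16, adjusted p = 0.945) and Il1b (-0.22 ± 0.15, adjusted p = 0.359) were not called. The other cells differed in make-up between the trios. Those with at least 3 Ccr7 UMIs but fewer than 3 of Fscn1 numbered 46, 27 and 79 in hashtags 2, 4 and 5. In hashtags 6, 8 and 9 they numbered 894, 772 and 1371. Summed T and NK cell markers of the other cells were 141, 220 and 350 CPM against 6.63, 7.07 and 8.98 CPM. The part of this make-up in the differences was not tested.

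The calls inside the gate were set beside those between the trios in the other cells. Over all 8243 genes tested in gate cells, 4136 were called higher and 2679 lower in the other cells of hashtags 6, 8 and 9, and 1485 and 5680 with library size alone as the scaling. Of the 1770 genes higher in gate cells of hashtags 6, 8 and 9, 1601 were also called higher in the other cells and 73 lower. Of the 1676 lower genes, 1255 were called lower there and 193 higher. With library size alone the counts were 1060 and 381 for the higher genes and 1618 and 20 for the lower genes. Cd86 stood at 416, 351 and 379 CPM in the other cells of hashtags 2, 4 and 5 and 2604, 3109 and 2667 CPM in those of hashtags 6, 8 and 9. Its difference of differences was called with TMM (-0.64 ± 0.14, adjusted p = 0.00309) but was 0.00 with library size alone, so no direction is given. The gate cells and the other cells of a hashtag come from the same replicate and the same droplet library, so the classes are not independent.

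**Figure D4:**
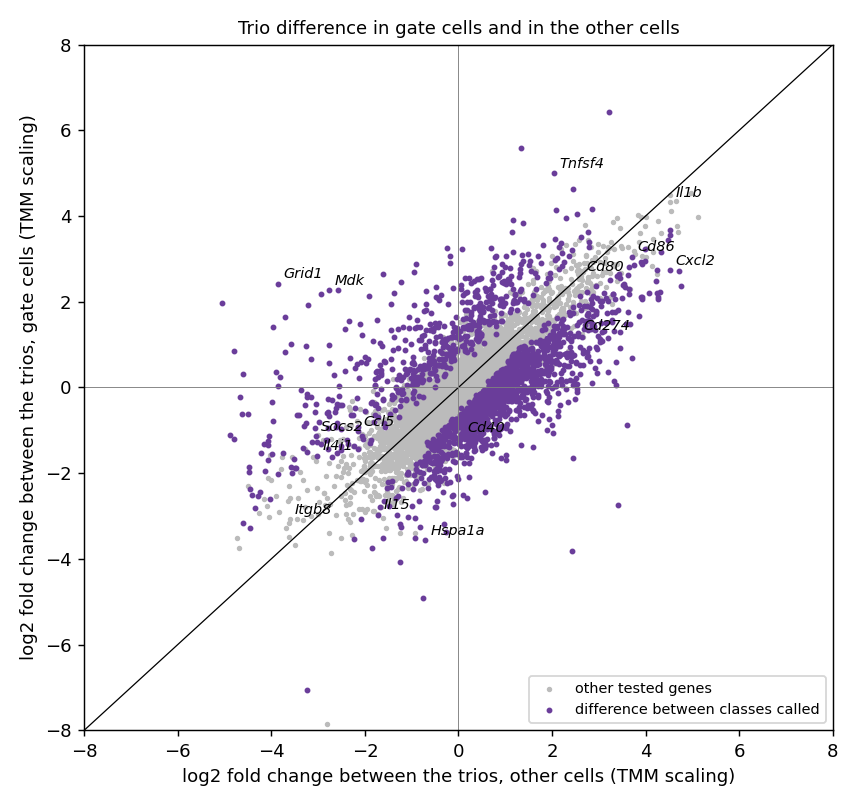
Log2 fold change of hashtags 6, 8 and 9 over 2, 4 and 5 in the other passing cells (horizontal) and in gate cells (vertical) for the 8243 genes tested in gate cells, with the 2073 of them called in the test of the difference marked. Of the 1770 genes called higher in gate cells, 1601 were called higher in the other cells too, against 4136 of all 8243.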

How the data were processed

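The authors deposited raw UMI counts for 32289 gene and 6 hashtag features, and a table of hashtag assignments whose probability is a fraction per barcode. Per the labels' protocols, the kit was Chromium Single Cell 3′ v3; Cell Ranger 8.0.1 and mm10 are named in the submitters' processing notes. No tool is named for the assignments, and 15 of the table's 18 columns were not used. Of 27679 assigned barcodes, 19239 carried a single hashtag (4815 multiplets, 1706 blank and 1919 unassigned were left out), 1294 had under 500 genes, 3627 had over 10% mitochondrial UMIs, and 15480 passed. The loss was uneven: 1485 of 2281, 1619 of 2499 and 1873 of 2926 barcodes passed in hashtags 2, 4 and 5. In hashtags 6, 8 and 9, 3091 of 3454, 2547 of 2856 and 4865 of 5223 passed. Median counts of passing cells were 6564, 6224 and 6564 UMIs against 12942, 12000 and 12930 UMIs. The part of this in the results was not tested. No caller for doublets within a hashtag was run.

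Counts of gate cells were summed per hashtag, the biological replicate. They were tested in edgeR 4.0.16 (R 4.3.3) with TMM scaling, filterByExpr and the quasi-likelihood test, with Benjamini-Hochberg adjustment over all genes. The difference from the other passing cells was tested as an interaction over 12 summed libraries with the hashtag as a block, since both classes of a hashtag come from the same replicate. The labels do not say whether replicates were single animals. Fscn1, Ccr7 and Prdm16 chose the cells and were not tested. DESeq2 1.42.0, other scalings and filters, stricter or depth-limited gates and leaving out each hashtag were alternatives. The scripts were tested on simulated data. Gate libraries held 212371 to 2434870 UMIs.

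The gate, the trios, the members and the gene lists were chosen with earlier results of these data known. Genes named are a fixed set of 17 and up to 2 called and non-overlapping genes per list with a mean of at least 20 CPM. To these were added 8 on each side of the other called and non-overlapping genes of at least 50 CPM. The last were the 8 called genes with the largest difference between gate cells and other cells and at least 50 CPM in a trio of the gate cells. Outside the fixed set, predicted genes without a name and mitochondrial and ribosomal protein genes were not eligible. Further list members are examples chosen after their values were seen. Coordinates are from GENCODE vM21 (GRCm38) and promoter sequences from RefSeq (GRCm38.p6). The list genes Cxcl11, Marchf1, Mx1, Mx2 and Clec7a had no matching feature symbol and were not analysed here; March1 was matched by its older symbol.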

Additional observations from a re-analysis of the deposited data

Results flagged for a closer look

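In 8 genes the trio difference in gate cells departed most from that in the other passing cells, by edgeR's interaction test. They were taken only from called genes with at least 50 CPM in a trio of the gate cells. Predicted genes without a name and mitochondrial and ribosomal protein genes were left out of the choice. The log2 difference of differences was 6.38 for Grid1, a glutamate receptor subunit, 5.20 for Ryr3, a calcium release channel, 5.12 for Mdk, a growth factor, 4.92 for Syt1, a synaptic vesicle protein, 4.87 for Esrrg, a nuclear receptor, and 4.10 for Fhit, a hydrolase at a fragile site. It was -6.08 for Hba-a1 and -5.14 for Hbb-bs, both globin genes of red blood cells. Grid1 stood at 57.9, 45.1 and 2.46 CPM against 195, 47.1 and 183 CPM (hashtags 2, 4 and 5 against 6, 8 and 9) in gate cells, and at 20.5, 11.2 and 28.2 CPM against 1.49, 0.402 and 0.464 CPM in the other cells. Mdk stood at 13.4, 13.2 and 24.6 CPM against 102, 33.0 and 74.4 CPM in the gate and 18.9, 19.3 and 26.1 CPM against 3.28, 0.872 and 1.22 CPM outside it. For both genes the second trio was low in the other cells. Esrrg stood at 17.8, 17.9 and 14.8 CPM against 94.2, 0 and 85.4 CPM in gate cells and Syt1 at 83.1, 12.7 and 34.9 CPM against 152, 0 and 16.9 CPM, and hashtag 8 held no UMI of either in its 14 cells. Fhit stood at 30.4, 42.3 and 36.6 CPM against 211, 51.8 and 133 CPM and Ryr3 at 29.7, 9.87 and 20.9 CPM against 92.0, 28.3 and 61.7 CPM. Among the globins, Hba-a1 stood at 10.4, 142 and 8.21 CPM against 4.54, 4.71 and 2.54 CPM and Hbb-bs at 18.5, 352 and 19.7 CPM against 20.4, 18.8 and 16.1 CPM in gate cells, with hashtag 4 far above the rest. In the other cells Hba-a1 stood at 8.72, 8.22 and 81.6 CPM against 85.3, 135 and 88.4 CPM and Hbb-bs at 26.6, 23.1 and 69.4 CPM against 221, 289 and 213 CPM, higher in the second trio. Between the trios in gate cells, Syt1 and Hbb-bs were not called by edgeR. The Grid1 call was lost among cells of 5000 to 15000 UMIs (adjusted p = 0.261) and without cells holding UMIs of other lineages (0.0969). In thinned cells the calls of Ryr3 (0.886) and Esrrg (0.427) were lost. DESeq2 gave an adjusted p of 0.195 for Grid1 and 0.260 for Esrrg. Hba-a1 lost its call without hashtag 6, 8 or 9.

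Outside the singly tagged cells, 360 of 4231 filtered barcodes called multiplets (8.51%) and 75 of 1401 unassigned barcodes (5.35%) met the same gate. Gated multiplets had a median of 21215.5 UMIs. They entered no comparison.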

How the results depend on the processing

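Between the trios 3446 genes were called, and the relative log expression, library-size, every-gene, 5% mitochondrial, assignment-probability, other-lineage and thinned-cell settings gave 2874 to 3963. DESeq2 gave 2656 (1341 higher, 1315 lower). Leaving out a hashtag gave 2514 to 3704 calls, 1347 to 1890 higher and 1167 to 1814 lower. The count moved with a gate at 5 UMIs to 1862 (953 and 909), among cells of 5000 to 15000 UMIs to 1982 (1001 and 981), with each library thinned to the smallest to 1543 (791 and 752), and with Ccr7 alone as the gate to 8664 (4319 and 4345). The last, the 0.99 probability and the thinned libraries were chosen after seeing the data. With the gate at 5 UMIs the shares were 4.31%, 6.42% and 6.94% against 1.20%, 0.275% and 0.863%, and with cells thinned to 3000 UMIs and a gate at 1 UMI they were 13.8%, 14.3% and 15.7% against 3.40%, 1.83% and 2.72%.

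Of 76 named genes tested, 73 were called, 58 kept their call under each of the 18 alternatives that gave them a value and 10 reversed somewhere. Most named genes were chosen because they were called, so the number called follows from the choice and the number kept is favoured by it. An alternative without a value did not count as a loss. Csf1r, Lsmem1 and Clec4n, all counted as kept, had a value in 13, 14 and 15 of the 18. With Ccr7 alone as the gate the log2 fold change was -1.17 for Il12b, 1.86 for Hba-a1, 1.80 for Hbb-bs, -1.32 for Grid1, -1.70 for Ryr3, -1.29 for Mdk, -2.86 for Syt1, -0.33 for Esrrg and -0.59 for Fhit. Among cells of 5000 to 15000 UMIs it was 0.016 for Ccl17 and 0.029 for Hbb-bs, and in thinned cells -0.024 for Syt1. Leaving out a hashtag gave -3.27 to 0.037 for Hbb-bs, the latter without hashtag 4, and -1.43, without hashtag 6, to 1.56 for Syt1. The cause was not tested.

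The interaction test called 2402 genes with the replicate block and 2932 without it, and 1706 to 2643 when a hashtag was left out. The higher share was 35% with TMM, 47.4% with relative log expression factors and 86.7% with library size alone, scalings added after seeing the data that moved the median by 0.13 and 0.61 on the log2 scale. With library size alone the difference for Cd86 turned to 0.00041 from -0.64. Hashtag 8, with 14 cells, limits what can be seen in the second trio.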

Other observations

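Genes of dendritic cell lineage showed a mixed picture in the gate. Of 10 core dendritic cell markers 4 were higher in hashtags 6, 8 and 9 and 2 lower. Flt3, the receptor that sustains dendritic cells, stood at 462, 404 and 445 CPM in hashtags 2, 4 and 5 and 261, 65.9 and 250.37 CPM in hashtags 6, 8 and 9 (log2 fold change -0.91 ± 0.27, adjusted p = 0.0177 by edgeR). Zbtb46, a transcription factor of conventional dendritic cells, was not called (0.17, adjusted p = 0.405), Dpp4 was lower at -1.21 and Kit, the stem cell factor receptor, was higher at 2.60. Of 7 tested markers of type 2 conventional dendritic cells 6 were higher and none lower, 2 of them (Cd209a and Clec4a2) having passed the filter on low counts only through hashtags 6, 8 and 9, and of 9 tested markers of type 1, 4 were higher and 1 lower. Zbtb46 and the other markers not called may still differ by less than these libraries can show.

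Other genes far apart between the trios were Plet1, Lsmem1, Tgm2 and Dthd1, higher at 4.11, 3.97, 3.95 and 3.63, and Pik3r3, Rubcn and Nuak1, lower at -3.13, -3.07 and -2.99. Tgm2 encodes a transglutaminase, Pik3r3 a regulatory subunit of PI3 kinase, Rubcn a regulator of autophagy and Nuak1 a kinase. Tlr11, a receptor for bacterial and protozoan proteins, stood at 20.8, 17.4 and 22.6 CPM in hashtags 2, 4 and 5 and 1.14, 4.71 and 5.92 CPM in hashtags 6, 8 and 9 (log2 fold change -2.22 ± 0.46, adjusted p = 0.00227). It passed the filter on low counts only through hashtags 2, 4 and 5. Cycling markers summed to 623, 712 and 773 CPM in hashtags 2, 4 and 5 and 964, 438 and 623 CPM in hashtags 6, 8 and 9, with overlap between the trios.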
